A study of Mus musculus with 3 samples.

Results

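The Ly49 receptors are lectin-like proteins on the surface of mouse natural killer (NK) cells. The family was taken here as a list of 7 genes, Klra1, Klra3, Klra4, Klra6, Klra7, Klra8 and Klra9, matched by symbol, out of 32285 genes in the table and 11 genes whose symbol starts with Klra. Membership was set by symbol alone, with no threshold on a measured value. The other Ly49 genes of the table, Klra2, Klra5, Klra10 and Klra17, were outside the list, although Klra5 was also detected in NK cells. Klra1 encodes Ly49A, Klra3 Ly49C, Klra6 Ly49F, Klra7 Ly49G and Klra9 Ly49I. These 5 are inhibitory receptors, which carry a tyrosine-based inhibitory motif, recruit phosphatases such as Ptpn6 (SHP-1) and bind MHC class I proteins. Klra4 (Ly49D) and Klra8 (Ly49H) are the 2 activating members, which lack that motif and signal through the adaptor Tyrobp (DAP12); Ly49H is known for binding a cytomegalovirus protein. Each receptor is known to be present on some NK cells and absent from others, so that a population carries many combinations. Ly49 proteins are also known on some T cells with NK-like features.

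The cells came from subcutaneous tumors of MC38-Ova, a mouse colon carcinoma line that carries ovalbumin, in Kaede mice on the C57BL/6 background. Kaede is a fluorescent protein that light turns from green to red. Mice received 250000 tumor cells in the left flank and an isotype control antibody, tumors were illuminated on day 13, and cells were sorted on day 15, 48 h later. Kaede-green cells had thus entered the tumor after illumination, and Kaede-red cells had been there since before it. The 3 single-cell RNA-seq libraries were 2 of Kaede-green cells and 1 of Kaede-red cells, all sorted as live, CD45+, Ter119- and CD11b-negative or low. CD11b, which Itgam encodes, was thus part of the sort, and the study states that its gate was set to take in the whole NK compartment. The labels number the 2 Kaede-green libraries as replicates without saying how many animals each held, so p-values measure only the spread between these libraries.

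Members were compared between classes of cells set by UMI counts of genes other than the family. These gates differ from the study's own classes, which were clusters annotated by markers. An NK cell had at least 1 unique molecular identifier (UMI, which marks 1 captured transcript) of Ncr1, the NK receptor NKp46, at most 1 of Cd3e, and at least 1 of Itga1 or Itgam. ILC-like cells were those NK cells with at least 2 UMIs of Rora and 0 of Eomes, the latter a transcription factor of NK cells. CD8 T cells had at least 2 UMIs of Cd3e with Cd8a and Cd8b1, and double-negative (DN) T cells had at least 2 UMIs of Cd3e with 0 of Cd4, Cd8b1 and Ncr1. The numbers of cells were 3241 NK, of which 183 ILC-like, 9776 CD8 T and 3602 DN T. CD4 T cells (1618) and B cells (292) stood beside them for reference, as classes not known for Ly49 receptors. The former had at least 2 UMIs of Cd3e with Cd4 detected and 0 of Cd8a and Cd8b1. The latter had at least 2 UMIs of Cd79a with 0 of Cd3e and Ncr1. The reference classes differed, with the members summing to 72.7, 94.3 and 106.3 CPM (UMIs per 1000000 UMIs of a class) in CD4 T cells of Kaede-green 1, then 2, then Kaede-red, and to 24.4, 48.0 and 14.4 CPM in B cells, the latter from 20, 27 and 1 UMIs.

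Depth differed between libraries and classes. Total UMIs per library lay between 87193225 and 175848894, and the median NK cell held 6248, 8948 and 23740 UMIs in Kaede-green 1, then Kaede-green 2, then Kaede-red, the order in which values of the 3 libraries are given throughout. Levels are therefore given as CPM, and shares of cells after thinning every cell to 2000 UMIs, averaged over 20 random draws. The NK gate kept 29.9%, 31.4% and 51.6% of the Ncr1-positive, Cd3e-low cells of the 3 libraries, since an integrin transcript had to be seen. Summed T cell markers in NK cells lay between 837.6 and 1068 CPM, against 6046 to 6699 in CD8 T cells. Most of the NK sum was Trbc1 (523.4 to 624 CPM) and Trbc2 (244.4 to 290.9). Cd3d was at 22.89 to 50.77 CPM in NK cells against 1104 to 1303 in CD8 T cells, and Trac at 22.09 to 50.96 against 702.5 to 728.9. Pairs of libraries shared 20 to 36 cell barcodes, and 180 to 314 putative doublets a library had been removed.

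All 7 genes lie on the minus strand of chromosome 6 within 374 kb, in the order Klra6, Klra4, Klra8, Klra9, Klra7, Klra3 and Klra1 of rising coordinate (GRCm38). No other annotated gene overlapped them on either strand. The receptors are near copies of each other, and reads of the 3′ ends could be shared. In the last 500 bases of their transcripts, 0% of 100-base windows of Klra1, Klra4, Klra6 and Klra8 occurred in another Ly49 gene, against 3.24% for Klra3, 3.66% for Klra7 and 7.95% for Klra9. The likeness extends to the region around the start site. In the RefSeq windows from 250 bases before to 50 after the start (GRCm38.p6), 6 of the 7 members held a like block of 51 bases, which begins with AGCANTTTCCTC. That motif was read from the members' own windows, so its presence in these 6 was set in advance. Searched on both strands, it was in 17 of 32851 windows of all genes (0.0518%), 9 of them of Klra genes, which include Klra5 and Klra17 outside the list. It was not in the window of Klra1. The first base of the block lay from 124 (Klra6) to 24 (Klra3) bases before the RefSeq start. In Klra3 and in Klra9 (43 bases before), the block of 51 bases thus ran past that start. The blocks are shown because the pairs that differ least in them include the 2 activating members. Capitals mark bases that differ from the most common base of the 6:
Klra6 (chr6:130027028-130027078): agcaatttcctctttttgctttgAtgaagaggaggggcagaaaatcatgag
Klra4 (chr6:130067305-130067355): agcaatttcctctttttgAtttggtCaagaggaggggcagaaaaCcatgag
Klra8 (chr6:130129933-130129983): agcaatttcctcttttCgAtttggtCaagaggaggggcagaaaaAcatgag
Klra9 (chr6:130193105-130193155): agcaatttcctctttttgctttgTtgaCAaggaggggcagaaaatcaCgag
Klra7 (chr6:130233366-130233416): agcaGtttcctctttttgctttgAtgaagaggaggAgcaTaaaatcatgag
Klra3 (chr6:130337600-130337650): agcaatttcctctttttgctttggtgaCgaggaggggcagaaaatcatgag
Klra4 and Klra8 differed at 2 positions of the block, as did Klra6 and Klra3, and the other pairs at 3 to 8. The match describes the letters, and binding to them was not measured.

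The first question was which classes of tumor lymphocytes carried which receptor. Of the 7 members, 6 were higher in NK cells than in CD8 T cells, and the activating pair stood furthest apart from the T cell classes. Klra8 was found at 379.3, 289.8 and 208.9 CPM in NK cells, and at 10.23, 16.94 and 10.91 CPM in CD8 T cells. The NK libraries lay above every CD8 T library, with a log2 difference of 4.53 (SE 0.209, edgeR adjusted p = 2.49e-05). Klra4 stood at 399.4, 326.5 and 258.1 CPM in NK cells and at 16.11, 17.49 and 11.85 in CD8 T cells, a log2 difference of 4.46 (SE 0.113, edgeR adjusted p = 9.14e-06). Among the inhibitory members, the log2 difference was 4.28 (SE 0.227) for Klra9, 3.34 (SE 0.227) for Klra7, 3.27 (SE 0.186) for Klra3 and 2.85 (SE 0.224) for Klra1, each at an adjusted p of 0.0002 or less. Klra6 was the exception. It stood at 12.88, 5.81 and 6.44 CPM in NK cells and 8.16, 9.18 and 5.10 in CD8 T cells, groups that overlapped (log2 difference 0.17, SE 0.244, edgeR adjusted p = 0.661). Of all 13330 genes tested, 12.7% were higher in NK cells and 14.3% lower.

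DN T cells carried a different set of members. Klra6 was at 57.84, 63.93 and 57.94 CPM in DN T cells of the 3 libraries, above every NK and CD8 T library (NK against DN T log2 -2.87, SE 0.229, edgeR adjusted p = 0.000437). Narrowed to the 2768 cells with 0 UMIs of Cd8a, DN T cells held Klra6 at 45.18, 51.16 and 42.91 CPM. Klra1 was at 95.23, 101.4 and 132.3 CPM in DN T cells and at 80.34, 55.23 and 79.91 in NK cells, so that DN T cells were higher in each library (log2 -0.56, SE 0.136, adjusted p = 0.0272). That call was lost without Kaede-green 2 (log2 -0.41, adjusted p = 0.14) and without the library block (adjusted p = 0.106). The other 5 members were higher in NK cells. Klra7 reached 201.8, 215.3 and 223.4 CPM in DN T cells, below the 376.1 to 426.9 CPM of NK cells (log2 0.96, SE 0.105, adjusted p = 0.00138). The difference was 1.93 (SE 0.199) for Klra9 and 2.60 (SE 0.149) for Klra3. It was widest for the activating members, at 4.86 (SE 0.436) for Klra4 and 5.00 (SE 0.377) for Klra8, which DN T cells held at 4.54 to 17.42 and 4.92 to 15.50 CPM. Between NK and DN T cells, 10.7% of 11798 genes tested were higher and 13.2% lower.

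**Figure D1:**
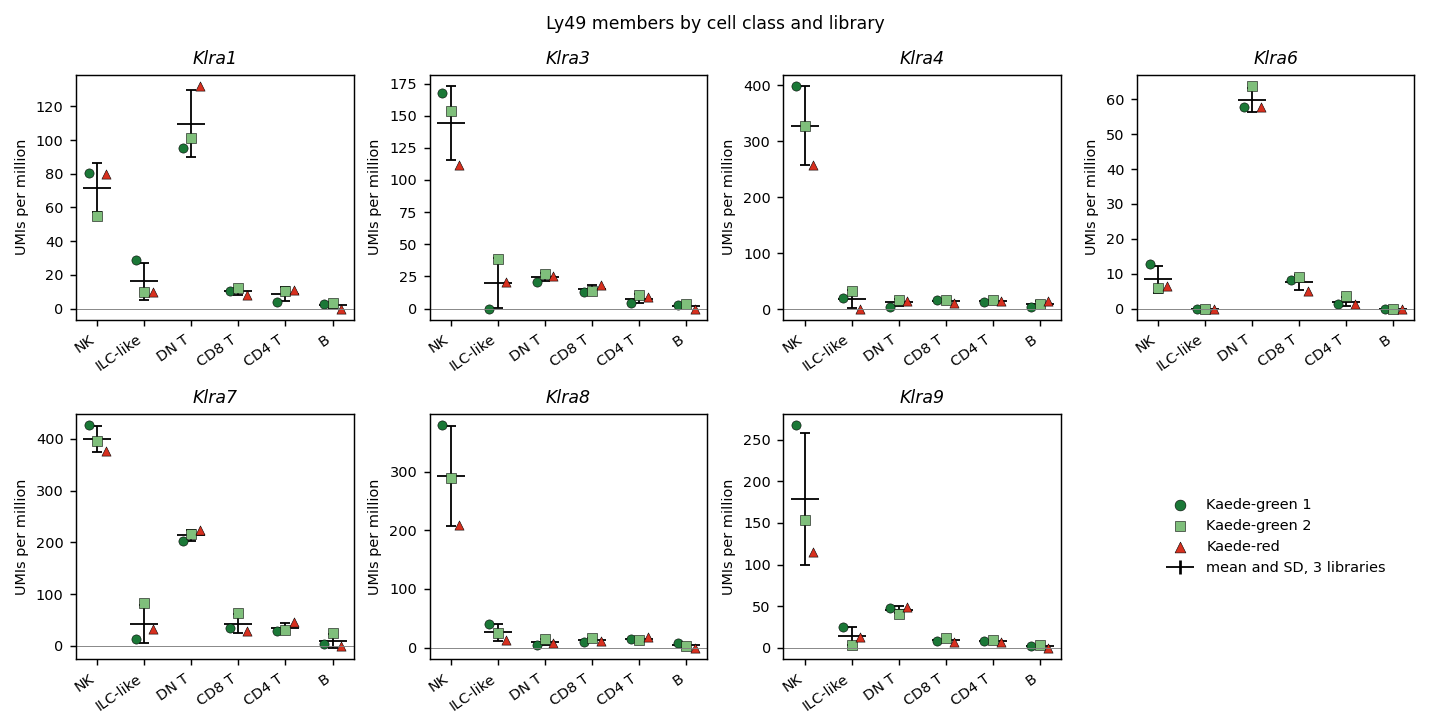
Level of each member in CPM (linear axes that differ between panels) by cell class, with 1 point per library and the mean and SD of the 3 libraries as bars. Klra4 and Klra8 stand high in NK cells only among the classes shown, Klra6 in DN T cells, and Klra7 and Klra1 in both NK and DN T cells.

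Set against CD8 T cells, DN T cells were higher in all 5 inhibitory members and in neither activating member. The log2 difference was 3.39 (SE 0.174) for Klra1, 3.01 (SE 0.134) for Klra6, 2.37 (SE 0.192) for Klra7, 2.35 (SE 0.162) for Klra9 and 0.67 (SE 0.125, edgeR adjusted p = 0.00624) for Klra3. Klra4 differed by -0.37 (SE 0.325, adjusted p = 0.408) and Klra8 by -0.46 (SE 0.165, adjusted p = 0.0637). Of 12680 genes tested, 18% were higher and 18.9% lower. The activating pair stood in both T cell classes near its level in CD4 T cells, which held Klra4 at 12.76 to 17.14 CPM and Klra8 at 13.35 to 18.40. Neither DN T cells (adjusted p = 0.493 and 0.155) nor CD8 T cells differed from CD4 T cells detectably, except that without Kaede-green 2 Klra8 was lower in DN T cells (log2 -1.20, adjusted p = 0.000839). After thinning, Klra4 had a UMI in 1.75% of DN T, 1.84% of CD8 T and 1.89% of CD4 T cells, and Klra8 in 1.79%, 1.73% and 1.70%. In B cells the shares were 3.11% and 0.966%, at 9.38 ± 4.78 and 4.03 ± 4.28 CPM (SD, n = 3). The Klra4 share in B cells ran from 1.43% to 6.43% over the libraries, and the highest was that of Kaede-red, from 7 cells. No measure of free RNA was made. CD4 T cells, whose gate set no limit on Ncr1, held it at 9.32 to 13.91 CPM. The B cell gate itself asked for 0 UMIs of Ncr1, so B cells give no comparison for it. CD4 T values are therefore not read as a level of free RNA, whose part was not tested. Where Ncr1-positive cells were left out of the CD8 T class, Klra4 fell to 8.18, 9.29 and 2.59 CPM and Klra8 to 5.15, 10.51 and 3.26. The NK adaptor Tyrobp was at 90.9 to 129 CPM in CD8 T cells and at 1886 to 2296 in NK cells, and the part of NK transcripts in the CD8 T values was not tested. These narrower gates also asked for 0 UMIs of Cd8a in DN T cells. With these narrower gates the direction turned, at a log2 difference of 0.92 for Klra4 and 0.66 for Klra8 (adjusted p = 0.203 and 0.101), while without the Kaede-red library both were lower in DN T cells (adjusted p = 0.0118 and 0.0188).

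The comparison with CD4 T cells, added after the data were seen, gave the distance of each T cell class from that reference. In DN T cells, all 5 inhibitory members were above CD4 T cells, by a log2 difference of 4.94 (SE 0.196) for Klra6, 3.78 (SE 0.182) for Klra1, 2.77 (SE 0.119) for Klra7, 2.65 (SE 0.138) for Klra9 and 1.77 (SE 0.18) for Klra3, beside 15.8% of all genes. CD8 T cells were above CD4 T cells in 2 members, Klra6 (log2 2.00, SE 0.276, adjusted p = 0.00267) and Klra3 (1.05, SE 0.236, adjusted p = 0.0178), beside 12% of all genes. The latter call was lost without Kaede-green 1 (adjusted p = 0.0547). Klra3 had a UMI in 1.98% of thinned CD8 T cells and 0.719% of CD4 T cells, and Klra6 in 1.2% and 0.398%.

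DN T cells were themselves mixed. Of them, 1009 had at least 2 UMIs of Trdc, the constant gene of the δ chain of the T cell receptor, and 2489 had none. The Trdc-negative cells held Foxp3, a gene of regulatory CD4 T cells, at 55.74, 68.3 and 91.69 CPM, against 176.5, 207.2 and 278.7 in CD4 T cells. They held Cd8a, which the DN T gate leaves free, at 61.98, 85.35 and 75.45 CPM, against 626.2, 708.1 and 853.5 in CD8 T cells. How many of them were CD4 or CD8 T cells with a missed transcript was not tested. Klra6 was at 21.70, 20.64 and 14.64 CPM in the Trdc-positive cells of the 3 libraries and at 70.52, 75.35 and 76.89 in the Trdc-negative cells, a log2 difference of -1.97 (SE 0.133, edgeR adjusted p = 4.54e-06). Klra7 (log2 -1.46, SE 0.0767), Klra9 (-1.94, SE 0.27) and Klra1 (-1.07, SE 0.152) were also lower in the Trdc-positive cells, beside 5.74% of all genes, and Klra3 was not detectably so (-0.46, adjusted p = 0.0727), though without Kaede-red it was (-0.61, adjusted p = 0.0213). The activating members ran the other way, at low levels. Klra4 was at 5.17, 27.84 and 25.26 CPM in Trdc-positive and 4.07, 11.28 and 6.92 CPM in Trdc-negative cells (log2 1.34, SE 0.239, adjusted p = 0.00346), and Klra8 differed by 0.93 (SE 0.241, adjusted p = 0.0264), beside 6.82% of all genes. The Klra8 call was lost without the Kaede-red library (adjusted p = 0.151). This split too was chosen after the data were seen. Summed γδ T cell markers were at 2000 to 3186 CPM in the Trdc-positive and 100.5 to 121.9 CPM in the Trdc-negative cells. Most of the former sum was Trdc (1800, 1400 and 2018 CPM), which made the split. Of the other markers, Tcrg-C1 was at 600.3, 331.2 and 811.8 CPM in the Trdc-positive cells and at 26.17, 20.25 and 25.74 in the Trdc-negative cells. Tcrg-C2 and Tcrg-C4 were also higher in the Trdc-positive cells of each library.

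The ILC-like cells held few transcripts of the 7 members. Their members summed to 127.8, 192.6 and 90.21 CPM in the 3 libraries, where all NK cells had 1734, 1380 and 1156. The class numbered 17, 53 and 113 cells in those libraries. All 7 members were lower than in the other NK cells, beside 1.35% of 10227 genes tested. Klra5, outside the list, was at 20.44 ± 18.04 CPM (SD, n = 3) in ILC-like and 36.24 ± 19.02 in other NK cells. Of the 4 Ly49 genes outside the list, 1 entered this test and did not pass it (log2 -0.62). Klra8 stood at 41.21, 24.21 and 12.69 CPM in ILC-like and 391.8, 315.4 and 220.3 CPM in other NK cells, a log2 difference of -3.88 (SE 0.194, edgeR adjusted p = 8.46e-12). Klra4 differed by -4.75 (SE 0.362), Klra9 by -3.80 (SE 0.258), Klra7 by -3.30 (SE 0.249), Klra1 by -2.75 (SE 0.263) and Klra3 by -2.63 (SE 0.259), each at an adjusted p of 7.41e-07 or less. Under DESeq2 the call for Klra3, of which Kaede-green 1 held 0 UMIs in its 17 ILC-like cells, was lost (adjusted p = 0.224). Klra6 had a UMI in 0 of 183 ILC-like cells (a true share of up to 1.64% is allowed), and was at least 8.44-fold lower than in other NK cells against a floor of 3 UMIs over the class (edgeR adjusted p = 0.000735).

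Not every lectin receptor was low in the ILC-like cells. Klrc1 (NKG2A), an inhibitory receptor outside the Ly49 family, was higher there by a log2 difference of 0.89 and Klrb1b by 0.76, and Klrk1 (NKG2D) differed by -0.20 (adjusted p = 0.706). Of 13 lectin receptors fixed as a list, 2 were higher and 4 lower, among them Klrg1 (log2 -2.59), beside 106 higher and 138 lower of 10227 genes tested. Tyrobp was lower by 0.86 on the log2 scale (adjusted p = 7.1e-05), the only one of 7 Ly49 signaling partners to pass the test. Summed ILC markers were at 344.1 to 440.3 CPM in ILC-like cells, against 69.98 to 141.4 in all NK cells. Most of that sum was Rora (296.7, 331.3 and 266.6 CPM), which the gate itself asks for. Outside the gate, Il7r was at 41.21, 56.13 and 32.64 CPM, against 11.12, 20.06 and 6.99 in all NK cells. Gata3 was at 90.67, 52.83 and 44.88 CPM against 75.37, 67.43 and 37.82, and so lower in Kaede-green 2. Because the ILC-like gate asks for 2 UMIs of Rora, it takes deeper cells in the green libraries, with medians of 11680, 16220 and 17490 UMIs. Absence of Eomes UMIs is itself likelier at low depth, and its part in the result was not tested.

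The integrins Itgam and Itga1 mark, in this study, NK cells early and late in their stay in the tumor. NK cells with Itga1 only (2321) were compared with those with Itgam only (802). Of the members, 5 were lower in the Itga1-only cells and none was higher, beside 16.8% lower and 18.1% higher of 9866 genes tested. In CPM, the activating pair and Klra9 fell by more than the others. As mean UMIs per cell, Itgam-only and Itga1-only cells lay close, at 4.32 and 4.43 for Klra4 and 3.81 and 3.88 for Klra8. Klra9 was at 2.29 and 2.26 by that count. Klra7 (3.83 and 6.71), Klra3 (1.33 and 2.26), Klra1 (0.716 and 1.28) and Klra6 (0.119 and 0.13) were higher per cell in Itga1-only cells. Klra4 was at 623.5, 587.1 and 540.0 CPM in Itgam-only and 252.9, 239.2 and 249.7 CPM in Itga1-only cells of the green libraries and Kaede-red, so that no library overlapped the other class (log2 -1.16, SE 0.0816, edgeR adjusted p = 9.42e-07). Klra8 changed by -1.15 (SE 0.0802), from 560.8, 518.2 and 469.2 CPM to 248.7, 213.3 and 202.1. Klra9 changed by -1.18 (SE 0.0863), from 408.7, 280.7 and 256.9 CPM to 166.7, 114.7 and 112.5.

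The remaining inhibitory members differed less or not detectably. Klra3 was lower by 0.39 on the log2 scale (SE 0.0965, edgeR adjusted p = 0.00732) and Klra7 by 0.35 (SE 0.116, adjusted p = 0.032). Both calls were lost without Kaede-green 1 (adjusted p = 0.0695 and 0.129), and that of Klra7 also under DESeq2 (0.072), without the library block (0.133) and with narrower gates (0.107). Klra1 (log2 -0.31, SE 0.153, adjusted p = 0.141) and Klra6 (-0.76, SE 0.324, adjusted p = 0.0889) did not pass the test. Without Kaede-green 1 both did (adjusted p = 0.00152 and 0.0309). The log2 ratio of Itga1-only to Itgam-only CPM of Klra1 was 0.16, -0.71 and -0.67 in the 3 libraries. The share of the 7 members' UMIs that came from Klra4 and Klra8 was 48.8%, 54.0% and 46.4% in Itgam-only cells and 40.0%, 39.0% and 39.9% in Itga1-only cells. Klra5, another Ly49 gene and no member, went the other way (log2 1.78, SE 0.173, adjusted p = 1.1e-05).

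**Figure D2:**
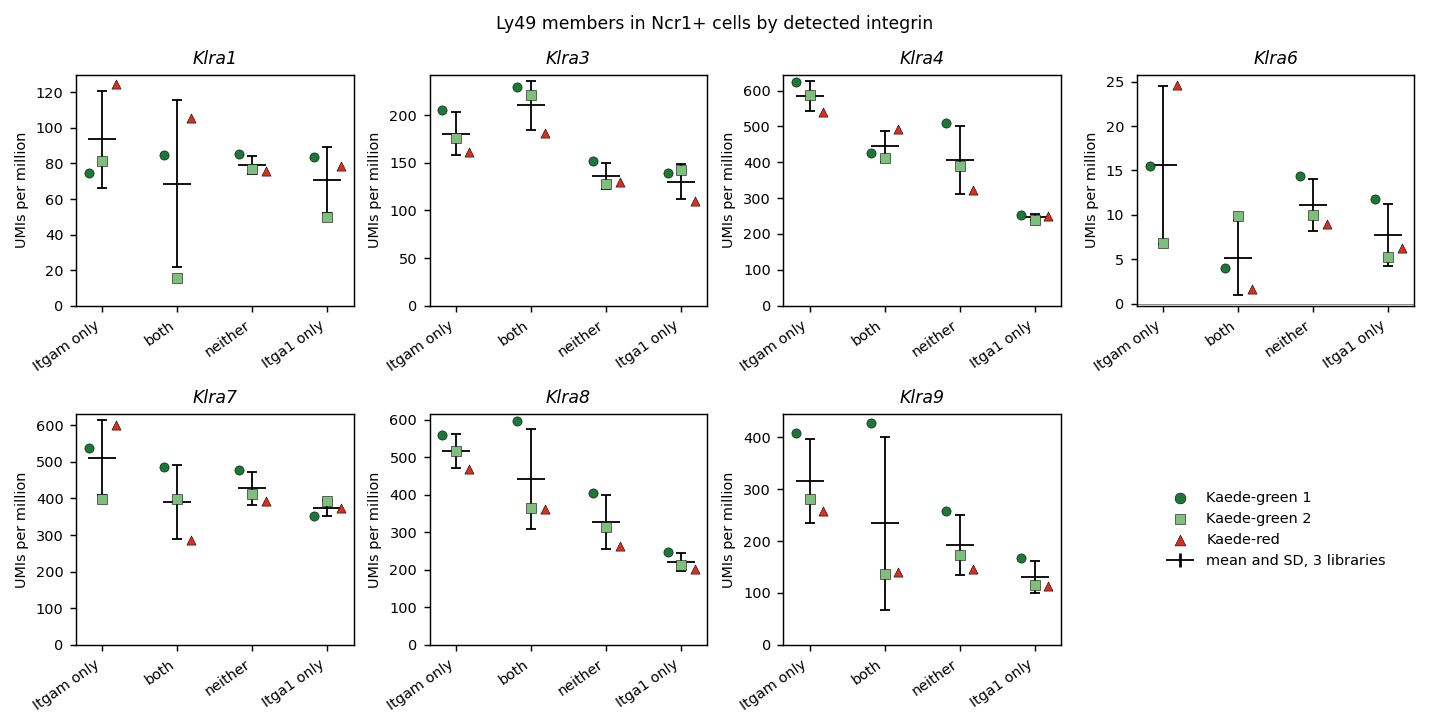
Level of each member in CPM (linear axes that differ between panels) in Ncr1-positive, Cd3e-low cells with Itgam only, both integrins, neither or Itga1 only, with 1 point per library and the mean and SD of the 3 libraries as bars. For every member the cells with neither integrin lie on average between the Itgam-only and Itga1-only cells.

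The receptors' partners and ligands moved as well. Among the 7 signaling partners, the adaptors Tyrobp (log2 -0.35, adjusted p = 0.00252) and Hcst (-0.75), the kinase Syk (-1.18) and the phosphatase Inpp5d (-0.70) were lower in Itga1-only cells, and the phosphatase Ptpn6 was higher (0.62, adjusted p = 0.000705). Of the 3 MHC class I ligand genes, H2-K1 (-0.29, adjusted p = 0.025) and H2-D1 (-0.25, adjusted p = 0.0324) were lower. Of 9 transcription factors fixed as Ly49 or NK regulators, 7 were lower, among them Eomes (-1.30). These lists stand beside 16.8% lower and 18.1% higher of all 9866 genes tested. Itga1-only cells were deeper, with medians of 9446, 12010 and 24490 UMIs against 5341, 6689 and 6701, and the part of depth was not tested.

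Cells with neither integrin transcript (5159) were outside the NK gate, and their members were computed after the data were seen. Klra4 was at 407.2 ± 95 CPM (SD, n = 3) in them, Klra8 at 328.2 ± 71.7, Klra9 at 192.5 ± 58.3 and Klra7 at 427.4 ± 44.4. Every member, Klra3, Klra1 and Klra6 among them, lay between the Itgam-only and Itga1-only values in the mean.

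The next question was whether members differed between cells that had newly entered the tumor and those retained there. With 1 Kaede-red library there is no replicate of that color and no test. Of the 7 members, 3 were lower in Kaede-red NK cells by more than the 2 Kaede-green libraries differed, beside 36.7% of the 12359 genes with at least 20 UMIs. That count lies near the share over all genes and does not set the family apart. Klra8 was at 208.9 CPM in Kaede-red against 379.3 and 289.8 in Kaede-green NK cells, Klra4 at 258.1 against 399.4 and 326.5, and Klra3 at 111.7 against 167.3 and 154.0. The log2 ratio to the mean of the green libraries was -0.68, -0.49 and -0.52, where the median of all genes was at -0.16. Relative to that median the ratios were -0.51, -0.33 and -0.36. Klra9 was lower in Kaede-red by 1.22 and 0.41 on the log2 scale, but the green libraries themselves differed by 0.80. Klra7 (376.1 CPM against 426.9 and 395.4) and Klra1 (79.91 against 80.34 and 55.23) did not exceed the green difference.

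The makeup of the NK cells changed with color. Itgam-only cells were 54.9%, 36.4% and 4.64% of the NK cells of the 3 libraries, and Itga1-only cells 40.3%, 58.2% and 93.2%. Within Itga1-only cells, Klra4 stood level between colors (252.9, 239.2 and 249.7 CPM, log2 ratio 0.02) and only Klra3 was lower by more than the green difference. Within Itgam-only cells, of which Kaede-red had 76, Klra4 and Klra8 still were, at smaller log2 ratios of -0.16 and -0.20 whose 95% counting intervals against Kaede-green 2 included 0 (-0.29 to 0.05 and -0.33 to 0.04). Klra1 was higher there by more than the green difference (0.74 and 0.62, against 0.12). Counted as UMIs per cell, all 3 ratios turned positive (Klra3 0.69, Klra4 0.73 and Klra8 0.55), and Kaede-red NK cells had more UMIs in all. With TMM scaling only Klra3 exceeded the green difference.

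In single NK cells, each member was detected in fewer cells than an even spread of its UMIs would reach. At 2000 UMIs per cell, Klra7 was detected in 39.1% ± 2.7 of NK cells (SD, n = 3), Klra8 in 32.9% ± 6.6, Klra4 in 30.7% ± 4.0, Klra9 in 25.6% ± 8.5, Klra3 in 19.1% ± 3.4, Klra1 in 8.72% ± 0.92 and Klra6 in 1.45% ± 0.48. These SDs span 2 Kaede-green libraries and 1 Kaede-red library, and so include any difference by color. Without thinning the shares were 60.6%, 52.9%, 43.6%, 43.3%, 32.5%, 15.4% and 4.90%. In CD4 T cells the thinned shares were 3.41% for Klra7 and 0.398% to 1.89% for the others. These shares follow each gene's 3′ capture as well as its level. The share was therefore set beside the one that the same mean in every cell would give. Observed over even shares came to 0.579 for Klra4, 0.626 for Klra1, 0.670 for Klra8, 0.676 for Klra9, 0.690 for Klra3, 0.691 for Klra7 and 0.853 for the scarce Klra6. The lectin receptors Klrk1, Klrd1, Klre1 and Klrb1c came to 0.944, 0.927, 0.943 and 0.892 in the same cells.

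**Figure D3:**
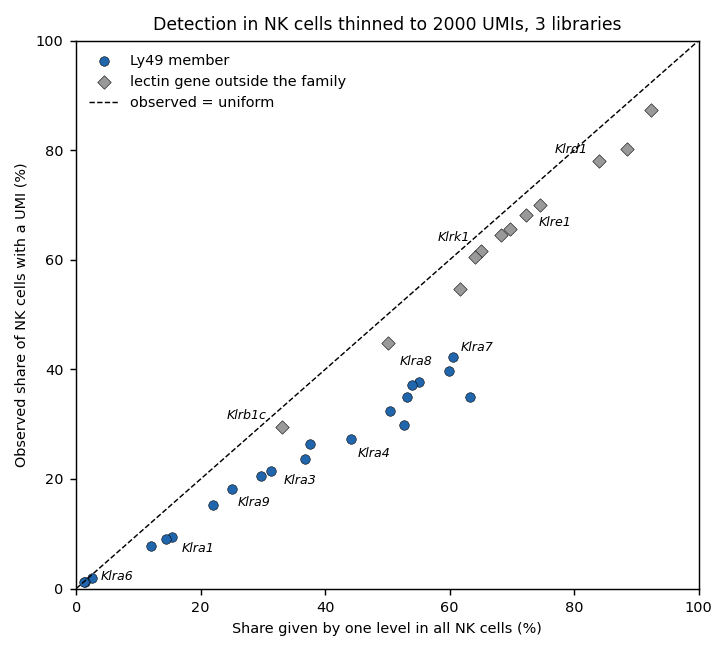
Share of NK cells with a UMI (percent, y axis) against the share that 1 level in all cells would give (percent, x axis), at 2000 UMIs per cell, with 1 point per gene and library and a dashed line where both are equal. The Ly49 members except Klra6 lie well below the line, and Klrk1, Klrd1, Klre1 and Klrb1c close to it.

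Most NK cells carried a UMI of at least 1 member even at 2000 UMIs. The share was 83.7%, 75.1% and 70.4% in the 3 libraries, with a mean of 1.85, 1.53 and 1.35 members per cell. At least 3 members were seen in 30.6%, 22.4% and 17.4%. Cells with both an activating and an inhibitory member were 46.7%, 37.3% and 31.8% of NK cells, cells with only inhibitory members 27.8%, 27.3% and 27.8%, and cells with only activating ones 9.29%, 10.4% and 10.7%. Of these kinds, cells with both were the ones less frequent in Kaede-red than in either Kaede-green library at 2000 UMIs. Without thinning the libraries lay closer, with both kinds in 66.49%, 62.55% and 61.23% of NK cells. Members per cell were then 2.613, 2.517 and 2.465, and 56.36%, 52.34% and 52.63% had at least 3. Kaede-red NK cells were the deepest, and the part of depth was not tested.

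The integrin classes differed in the same measure within each library. Itgam-only NK cells had 2.15, 1.92 and 2.08 members per cell and Itga1-only cells 1.43, 1.27 and 1.30. ILC-like cells had 0.341, 0.322 and 0.143. Among DN T cells, 33.2%, 40.9% and 34.1% had a member, most of them with inhibitory members alone (31.4%, 35.3% and 31.5% of cells), and 0.866%, 2.31% and 1.21% had both kinds. CD4 T cells had a member in 6.04%, 12.3% and 6.67%, and CD8 T cells in 10.2%, 15.0% and 8.57%, so that Kaede-green 2 was highest in both. Summed myeloid markers were also highest in Kaede-green 2, at 7.497, 22.41 and 15.71 CPM in CD4 T cells. In CD8 T cells they were at 13.78, 30.15 and 6.056 CPM. The part of other cells' transcripts in these shares was not tested.

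**Figure D4:**
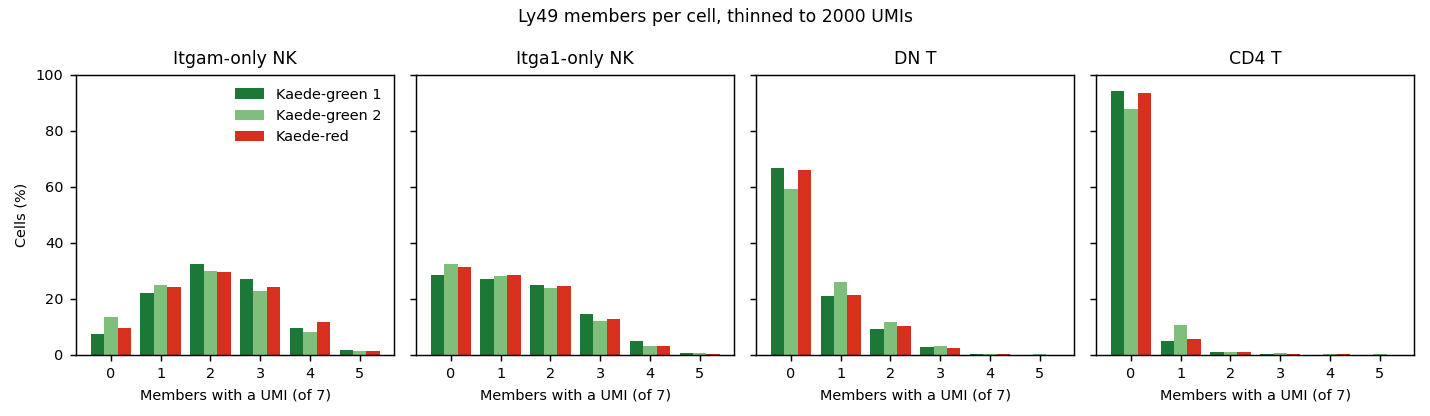
Distribution of the number of members with a UMI per cell (x axis, of 7) as a percent of cells (y axis) at 2000 UMIs per cell, in Itgam-only NK, Itga1-only NK, DN T and CD4 T cells, with 1 bar per library. Most Itgam-only NK cells have 1 to 3 members, and most DN T and CD4 T cells have 0.

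Members were then compared in pairs, as the number of cells with both over the number given by the product of their shares within a library, where 1 means that the pair met as often as the shares alone give. Over the 21 pairs in NK cells the median ratio was 1.24, with 17 above 1. Both values include the pairs with Klra6, which rest on few cells and are not read singly. The 28 pairs of a member with Klrk1, Klrd1, Klre1 or Klrb1c had a median of 1.05 and lay between 0.967 and 1.2. A ratio cannot exceed 1 over the larger share of its pair. Klrd1, Klrk1, Klre1 and Klrb1c were detected in 81.9%, 65.4%, 64.8% and 43% of thinned NK cells, and no member in more than 39.1%. Pairs with these lectin receptors thus had less room above 1, and their median is no baseline for that of the member pairs. The ratios pool integrin classes with unlike shares, whose part was not tested, and are given as descriptions. The activating pair met often: 449 cells held both Klra4 and Klra8 where the product gave 306, a ratio of 1.47 ± 0.10 (SD, n = 3) that was 1.35, 1.51 and 1.54 in the 3 libraries. Klra1 and Klra4 met in 123.8 cells where the product gave 85.0 (1.5 ± 0.24). Klra8 and Klra9 (1.29 ± 0.08), Klra1 and Klra7 (1.29 ± 0.06) and Klra4 and Klra7 (1.28 ± 0.04) were also above 1 in the mean.

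Some inhibitory pairs met less often than the product. Klra1 and Klra3 shared 34.7 cells where 51.4 were given, a ratio of 0.697 ± 0.128 that was below 1 in every library (0.80, 0.738 and 0.553). Klra1 and Klra9 shared 52.6 cells where 67.4 were given (0.789 ± 0.127), also below 1 in every library at 0.643, 0.853 and 0.870. Klra3 and Klra9, which both encode receptors known to bind H2-K, were at 0.983, and Klra3 and Klra7 at 1.01. Counts of shared cells are means over the draws and need not be whole. Every Klra6 pair was given fewer than 20 cells and is not read.

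Among DN T cells, Klra6 and Klra7 shared 143.3 cells where 57.7 were given (2.51 ± 0.34), Klra1 and Klra7 199.5 where 86.1 were given (2.33 ± 0.22), and Klra1 and Klra6 70.5 where 32.6 were given (2.15 ± 0.20). Klra1 and Klra9, below 1 in NK cells, stood at 2.26 ± 0.31. In this mixed class, pairs of a member with the other lectin receptors already had a median of 1.56, and member pairs 1.69.

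**Figure D5:**
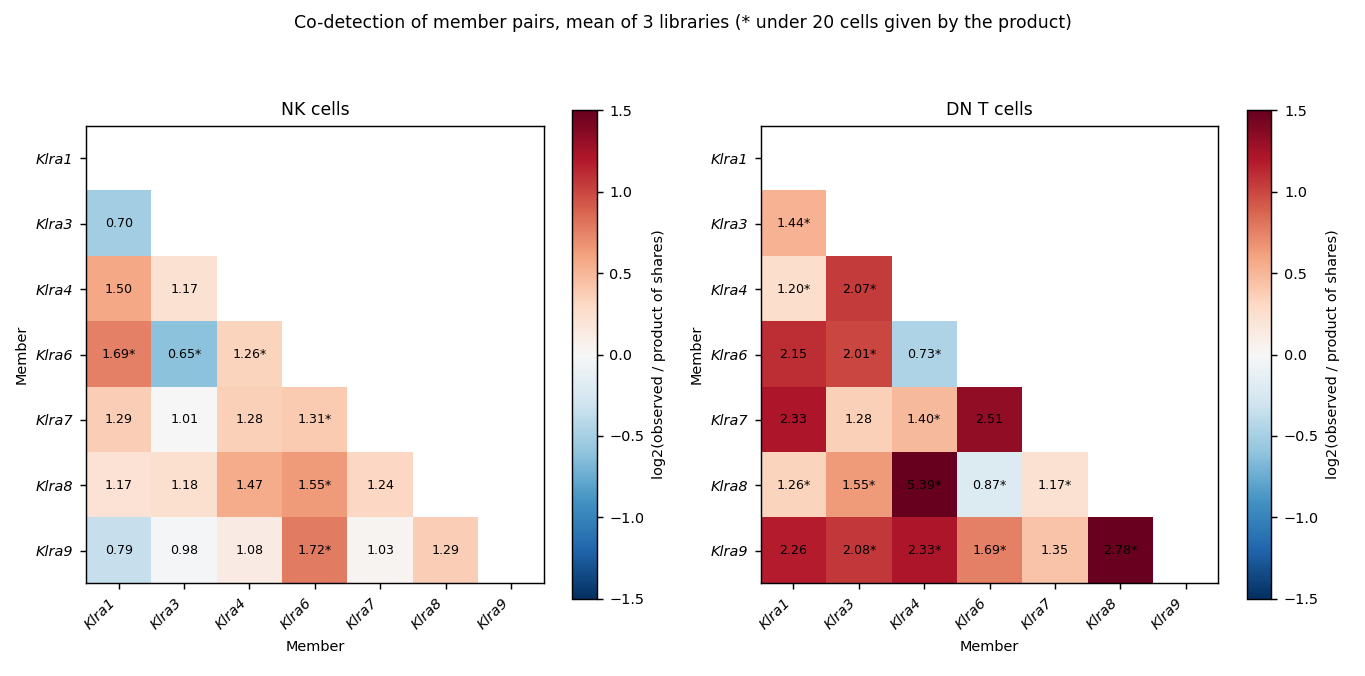
Ratio of cells with both members to the number given by the product of shares, mean of 3 libraries at 2000 UMIs per cell, for NK cells and DN T cells; color is the log2 of the printed ratio, limited to 1.5 either way. In NK cells Klra4 with Klra8 stands at 1.47 and Klra1 with Klra3 at 0.70, and stars mark pairs given under 20 cells.

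Outside the family, the lectin receptors and signaling partners were compared between the same classes. Of the 13 lectin receptors, 9 were higher and 1 lower in NK than in CD8 T cells, and 9 were higher and 0 lower than in DN T cells, beside 12.7% and 14.3%, and 10.7% and 13.2%, of all genes. Of the 7 signaling partners, 3 were higher in NK than in CD8 T cells, Tyrobp (log2 4.36), Syk (3.46) and Inpp5d (0.76), and 3 lower, Zap70 (-0.83), Hcst (-0.49) and Ptpn6 (-0.40). Against DN T cells 3 were higher, Tyrobp (3.80), Syk (2.60) and Ptpn6 (0.71), and 1 lower, Zap70 (-0.39). None of the 3 MHC class I ligand genes passed the test between these classes. Of the 9 regulators, 8 were tested between DN T and CD8 T cells, and 3 were higher and 3 lower in DN T cells, beside 18% and 18.9% of all genes. Zbtb16 (PLZF), a factor of innate-like T cells, was higher by a log2 difference of 4.66, Tcf7 by 1.33 and Nfil3 by 0.54. Tbx21 (-1.02), Id2 (-1.01) and Runx3 (-0.35) were lower. Within DN T cells, Zbtb16 was at 21.7, 21.6 and 30.01 CPM in the Trdc-positive cells. It was at 3.39, 4.742 and 3.7 CPM in the Trdc-negative cells, where Klra6, Klra7, Klra9 and Klra1 were higher. Over the 12 sums of other NK, ILC-like, CD8 T and DN T cells, the genes whose log2 CPM followed the summed members most closely were Etv3 (Pearson r = 0.952), Fibp (0.881), Arap1 (0.864), Hsd11b1 (0.863) and Cd37 (0.861), of 6353 genes. Those points share libraries and cell classes, and r is given as a description. NK, CD8 T and DN T sums each served in more than 1 comparison, so the comparisons are not independent.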

How the data were processed

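The deposited values were raw counts of UMIs per gene and cell barcode, made by the authors with Cell Ranger from 10x 3′ libraries aligned to mm10. The submitters' notes name version 6.1.2 and the file headers 6.0.1. No fold changes or annotations of the authors were used. A cell was kept if it had 1000 to 6000 genes and less than 7.5% of its UMIs from mitochondrial genes. Doublets were scored in each library against simulated doublets (2 per cell, 2000 variable genes, 30 components), and subclusters with an outlying median score at an adjusted value under 0.1 were removed, after the study's methods. Of the deposited barcodes, 9761 of 10498 remained in Kaede-green 1, 10764 of 12327 in Kaede-green 2 and 10685 of 11956 in Kaede-red.

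Classes were set by transcript gates that use no Ly49 gene. Cells are no replicates, so UMIs were summed per library and class and tested over all genes with edgeR's quasi-likelihood test (TMM scaling, filterByExpr, library as a block, Benjamini-Hochberg adjustment over all genes tested, threshold 0.05). Both sums of a library come from the same sorted cells, which is where the pairing comes from. With 1 Kaede-red library no test between colors was made: 0.5 UMI was added to each log2 ratio, and a ratio was called larger only where both red to green ratios had the same sign and exceeded the green to green ratio. Thinning drew UMIs without replacement. Intervals, floors (3 counts) and shares cover counting error only. Each SD over the 3 libraries spans both colors.

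All 7 members were named in every comparison, and other genes by lists of partners, ligands, lectin receptors and regulators. The members, although set by symbol alone, and the lists were chosen with earlier results of these data known. The comparisons with CD4 T cells, the Trdc split, the cells without integrin and the setting with no upper gene limit were chosen after the data were seen. Alternatives were other scalings, DESeq2, no filter, no block, each library left out, doublets kept, no mitochondrial limit and narrower gates. The tests were tested on simulated data. Sequences are RefSeq's (GRCm38.p6), and gene positions are from GENCODE on GRCm38. Tools were Python 3.11.15, numpy 2.4.6, scipy 1.17.1, pandas 2.3.3, scikit-learn 1.9.0, leidenalg 0.10.2, R 4.3.3, edgeR 4.0.16 and DESeq2 1.42.0.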

Additional observations from a re-analysis of the deposited data

Results flagged for a closer look

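Klra4 in DN T against CD8 T cells was higher in Kaede-red and lower in Kaede-green 1, with almost no difference in Kaede-green 2. The log2 ratio of CPM was 0.37 in Kaede-red and -1.81 and -0.0034 in the Kaede-green libraries, at levels of 4.54 to 17.42 CPM in DN T and 11.85 to 17.49 CPM in CD8 T cells. The 2 Kaede-green libraries lay further apart from each other than Kaede-green 2 lay from Kaede-red. The difference between colors was not tested, since there is 1 Kaede-red library.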

How the results depend on the processing

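Of 483 member tests repeated under an alternative, 447 kept their direction and their side of the threshold. The 6 members higher in NK than CD8 T cells, the 5 higher in NK than DN T cells, the 5 higher in DN T than CD8 T cells and the 7 lower in ILC-like cells stayed so with each library left out. Where a call or count did change, the cause was not tested unless fewer samples entered. Without the library as replicate block, 1725 instead of 3602 genes passed for NK versus CD8 T, 2012 instead of 4684 for DN T versus CD8 T and 57 instead of 244 for ILC-like versus other NK, and 1 member instead of 2 was lower for NK versus DN T. DESeq2 called 144 genes for ILC-like versus other NK and 2060 instead of 3448 for Itga1 NK versus Itgam NK. Members lower in DN T than CD8 T cells, 0 in the fit reported, numbered 2 with no filter, 1 with doublets kept and 1 with no upper gene limit. With each library left out, the genes called ranged from 1797 to 3637 for NK versus DN T (members lower 1 to 2), 2974 to 4427 for DN T versus CD8 T (members lower 0 to 2), 181 to 538 for ILC-like versus other NK, 1886 to 3778 for Itga1 NK versus Itgam NK, 2103 to 3428 for DN T versus CD4 T (members lower 0 to 1), 1943 to 3505 for CD8 T versus CD4 T (members higher 1 to 4) and 875 to 1203 for Trdc DN T versus other DN T (members higher 1 to 2, lower 4 to 5). Directions turned for members that were not called. With each library left out, Klra6 in NK versus CD8 T ranged from -0.040 to 0.54, Klra4 in DN T versus CD8 T from -0.66 to 0.14, Klra4 in DN T versus CD4 T from -0.53 to 0.13, and in CD8 T versus CD4 T Klra1 from -0.0012 to 0.70, Klra4 from -0.039 to 0.26, Klra7 from -0.056 to 0.85 and Klra8 from -0.52 to 0.064. Klra6 in NK versus CD8 T stood at -0.0015 without Kaede-red. With narrower gates, Klra4 and Klra8 in DN T versus CD8 T turned to 0.92 and 0.66. By color, 3 lower members became 0 as UMIs per cell, with Klra3, Klra4 and Klra8 turned to 0.69, 0.73 and 0.55, and 1 within Itga1-only cells, where Klra4 was at 0.021, or with TMM scaling. That count needs both green libraries, so neither could be left out. The median share of NK cells over the members was 25.6%, or 41.0% without thinning and 12.4% at 2 UMIs, and members per cell were 1.57, or 2.53 without thinning, 2.03 at 4000 UMIs and 0.842 at 2 UMIs. Depth limits single cells: a member without a UMI at 2000 UMIs was not detectable at this depth, not absent.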
